A study of Mus musculus with 8 samples.

Results

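BAF complexes (the mammalian SWI/SNF family) are ATP-driven machines that slide and eject nucleosomes. Many of their subunits come from small families of related genes, and a given complex need not hold every member of a family. The set of paralogues a cell transcribes thus bounds the complexes it can build. Embryonic stem cells are known for a form with Smarca4 as the ATPase, Smarcc1 as the scaffold and Actl6a as the actin-like subunit and with little Smarca2 or Smarcc2, whereas neurons exchange Actl6a for Actl6b and Phf10 and Dpf2 for Dpf1 and Dpf3. The genes described here are 10 such subunits, chosen by symbol: the ATPases Smarca4 and Smarca2, the scaffolds Smarcc1 and Smarcc2, the accessory subunit Smarcd3, the actin-like Actl6a and Actl6b, and the PHD finger genes Phf10, Dpf1 and Dpf2. Each matched 1 entry of the 39009 in every gene table, and all 10 passed the filter of 1 FPKM (fragments mapped to a gene, divided by its transcript length and by the mapped fragments of the library) in at least 1 library. Actl6b did so through 1 library alone.

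RNA sequencing of total RNA covered 8 mouse libraries in 5 groups. Chemically induced pluripotent stem cells (CiPSC), which are made from somatic cells with small-molecule compounds, were represented by 3 lines of neural stem cell origin (NSC-CiPSC lines 1, 2 and 3) and 2 lines of small intestinal epithelial origin (IEC-CiPSC lines 10 and 13). Their references were 1 library of neural stem cells (NSC) at passage 2, 1 of intestinal epithelial cells (IEC), both from E13.5 embryos, and 1 of the embryonic stem cell line R1 (ESC). CiPSC and somatic libraries carry the strain label C57BL/6J-Tg(GOFGFP)11Imeg/RbrcxICR, in which the number before Imeg runs from 11 to 17 over the 7 libraries, and ESC is 129X1 x 129S1, so strain and origin cannot be told apart in comparisons with ESC. The labels used here do not name the compounds, and do not tie the lines to animals or to separate inductions. P-values therefore measure the spread among lines of 1 origin, which may be technical in part.

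FPKM sums ran from 661114 to 771389 and mitochondrial transcripts held 1.94% to 11.6% of them. The 6 markers of pluripotency (Pou5f1, Nanog, Zfp42, Esrrb, Dppa5a and Tdgf1) were each at 10 FPKM or more in all 5 CiPSC lines and in ESC, against summed levels of 10.2 FPKM in NSC and 0.571 FPKM in IEC. All 7 neural stem cell markers reached 10 FPKM in NSC. In IEC, 3 of 6 intestinal epithelial markers did so, with a summed level of 141 FPKM, while fibroblast markers summed to 6731 FPKM (6 of 6 at 10 or more), liver markers to 5405 FPKM (3 of 3), muscle markers to 4245 FPKM (7 of 8) and leukocyte markers to 3641 FPKM (5 of 6). Endocrine and enteroendocrine markers summed to 962 FPKM in IEC (2 of 5 at 10 or more), with Ins2 at 592 FPKM and Gcg at 361 FPKM. Of the intestinal sum in IEC, Fabp1 supplied 109 FPKM, while Vil1, Lgr5 and Cdx2 were at 3.14, 1.08 and 0.0912 FPKM. Epcam (15.9 FPKM) and Cdh1 (11.9 FPKM) were lower in IEC than in every pluripotent library. In the 2 IEC-CiPSC lines the lists summed to 132 and 128 FPKM (intestinal), 27.8 and 30.9 FPKM (fibroblast), 0.101 and 0.243 FPKM (liver), 41.2 and 50.3 FPKM (muscle), 13.1 and 10.0 FPKM (leukocyte) and 5.41 and 5.82 FPKM (endocrine). The intestinal sums there came mostly from Epcam (mean 63.9 FPKM) and Cdh1 (mean 65.4 FPKM), with Fabp1 listed at 0. They were like the intestinal sums of NSC-CiPSC lines 1, 2 and 3 (131, 153 and 150 FPKM) and ESC (128 FPKM). The library labelled IEC thus carries transcripts of several cell types, and their part in the differences between IEC-CiPSC and IEC was not tested. In bulk RNA, fewer cells of a type and less RNA per cell cannot be told apart.

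Of the ATPase pair, Smarca2 was far lower in all 5 CiPSC lines than in either somatic library, while Smarca4 was near its NSC level in NSC-CiPSC and above IEC in IEC-CiPSC. Smarca2 (chr19, 26605115 to 26778321, mm10), the catalytic subunit alternative to Smarca4, had 1.72, 2.14 and 1.25 FPKM in NSC-CiPSC lines 1, 2 and 3, against 67.6 FPKM in NSC. It had 2.21 and 2.92 FPKM in IEC-CiPSC lines 10 and 13, against 85.2 FPKM in IEC. ESC had 2.36 FPKM, within the range of the CiPSC lines, and no CiPSC line came near either somatic library. The authors' 95% interval within the library was 60.5 to 74.7 FPKM in NSC and 78.04 to 92.4 FPKM in IEC, and that of NSC-CiPSC line 3 reached down to 0 with an upper bound of 2.53 FPKM. On the log2(FPKM + 1) scale, which understates the change of low genes, Smarca2 fell by 4.68 in NSC-CiPSC (SE 0.25, limma adjusted p = 0.000523) and fell by 4.60 in IEC-CiPSC (SE 0.265, limma adjusted p = 0.000417), lower in 3 of 3 and 2 of 2 lines.

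Smarca4 (chr9, 21616169 to 21704230), the catalytic subunit that early embryos and embryonic stem cells depend on, had 56.4, 63.8 and 63.4 FPKM in NSC-CiPSC, against 59.5 FPKM in NSC. The NSC value lies inside the range of the lines, and the difference of 0.04 had a 95% interval of -0.22 to 0.30 (limma adjusted p = 0.767). In IEC-CiPSC Smarca4 had 53.2 and 51.2 FPKM, against 26.2 FPKM in IEC. That difference was 0.97 (SE 0.101, limma adjusted p = 0.00224, 95% interval 0.69 to 1.25), which passed the adjusted p but not the 2-fold minimum. ESC had 54.6 FPKM.

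The promoters of this pair are shown because Smarca2 had the largest change of the 10 genes in both comparisons with the somatic libraries and Smarca4 is its alternative. Sequences are 250 bases before the start in RefSeq (GRCm38.p6), 5′ to 3′ on the strand of the gene. Capitals mark GC boxes (GGGCGG) and CCAAT boxes (CCAAT) on either strand, with no overlap between the 2 motifs. Smarca4 lies at chr9:21615919-21616168 (+ strand) and Smarca2 at chr19:26604910-26605159 (+ strand). RefSeq starts need not match the gene starts given with the levels: the Smarca2 sequence runs past its gene start of 26605115.
Smarca4: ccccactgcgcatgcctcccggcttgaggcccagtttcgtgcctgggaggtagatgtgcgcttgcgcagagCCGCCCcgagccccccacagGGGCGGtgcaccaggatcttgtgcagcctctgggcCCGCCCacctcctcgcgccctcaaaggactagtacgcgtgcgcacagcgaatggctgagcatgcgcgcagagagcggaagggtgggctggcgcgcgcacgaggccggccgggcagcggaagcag
Smarca2: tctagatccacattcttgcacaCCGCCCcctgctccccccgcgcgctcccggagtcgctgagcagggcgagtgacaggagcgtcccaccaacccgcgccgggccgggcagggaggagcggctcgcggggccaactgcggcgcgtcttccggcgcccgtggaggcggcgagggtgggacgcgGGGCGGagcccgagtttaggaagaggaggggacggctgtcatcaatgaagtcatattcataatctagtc
Smarca4 had 3 GC boxes and 25 CpG, and Smarca2 had 2 GC boxes and 28 CpG. Neither held a CCAAT box, an octamer (ATGCAAAT) or a TATA box (TATAAA). Of 32841 RefSeq promoters of this length, 32.7% held a GC box, 33.9% a CCAAT box, 1.60% the octamer and 12.4% the TATA box, and the median was 6 CpG.

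The ratio of Smarca4 to Smarca2 FPKM was 32.9, 29.9 and 50.6 in NSC-CiPSC lines (mean 37.8 ± 11.2, SD, n = 3), against 0.880 in NSC. It was 24.1 and 17.5 in IEC-CiPSC lines (mean 20.8 ± 4.61, SD, n = 2), against 0.307 in IEC, and 23.1 in ESC. Because Smarca2 was low there, the within-library intervals bound these ratios loosely. The bounds were 16.5 to 372, 16.2 to 136 and 24.0 with no upper bound in NSC-CiPSC lines 1, 2 and 3. They were 14.1 to 69.6 and 10.9 to 39.8 in IEC-CiPSC lines 10 and 13, and 13.4 to 71.1 in ESC. The bounds of both origins and ESC thus overlap. Smarca4 made up 94.6% to 98.1% of the summed ATPase FPKM in the 6 pluripotent libraries, against 46.8% in NSC and 23.5% in IEC. The sum itself was 62.9 ± 4.20 FPKM in NSC-CiPSC (SD, n = 3), against 127 FPKM in NSC, and 54.8 ± 0.892 FPKM in IEC-CiPSC (SD, n = 2), against 111 FPKM in IEC.

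**Figure D1:**
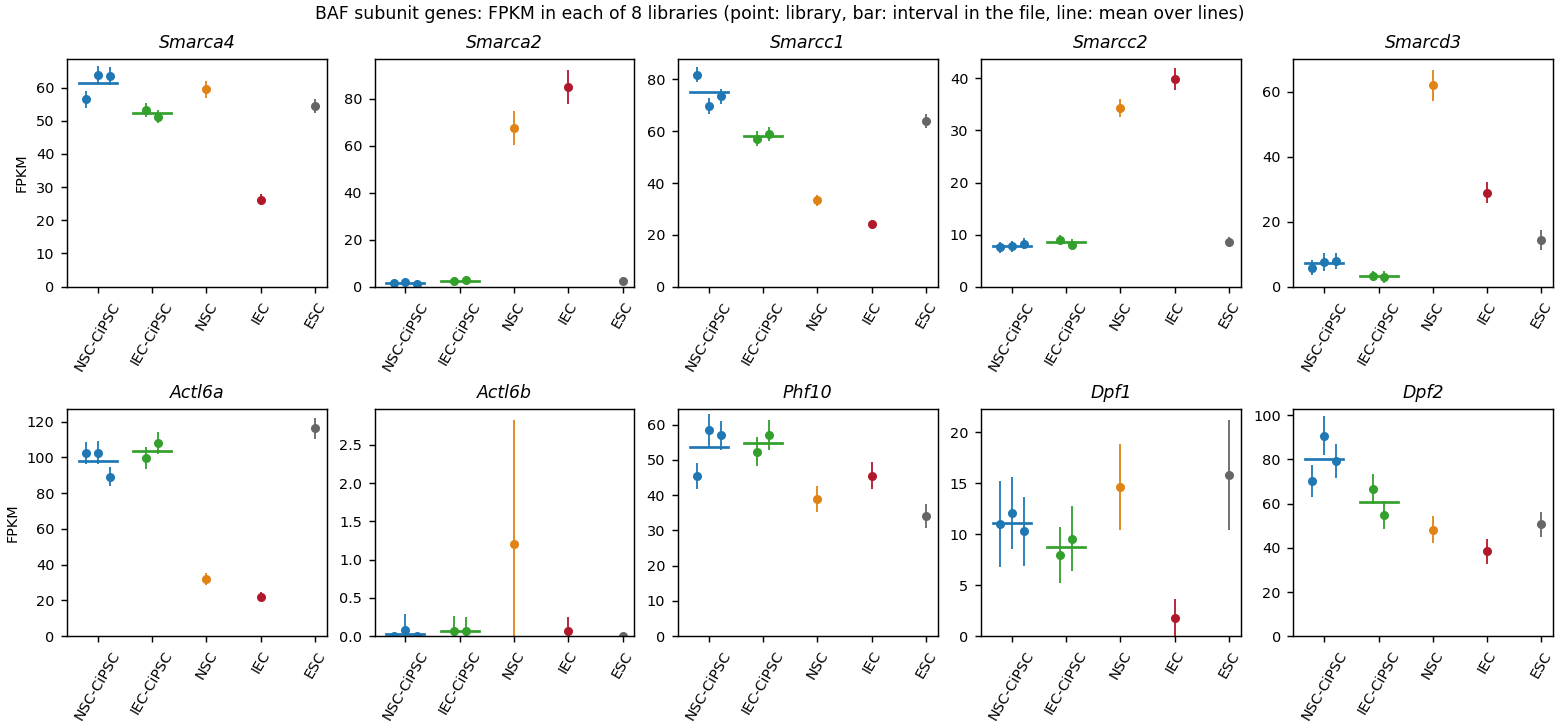
FPKM of each of the 10 BAF subunit genes in every library, 1 point per library on a linear axis with its own range in each panel, with the interval in the file as a bar, the mean over CiPSC lines as a line, and groups in the order NSC-CiPSC, IEC-CiPSC, NSC, IEC and ESC. Smarca2, Smarcc2 and Smarcd3 sit below both somatic libraries in all 5 CiPSC lines, whereas Smarcc1 and Actl6a sit above them.

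In the scaffold pair both partners changed, Smarcc1 upward and Smarcc2 downward, in CiPSC of both origins. Smarcc1 (chr9, 110132037 to 110240178), a scaffold needed for self-renewal of embryonic stem cells, had 81.8, 69.8 and 73.4 FPKM in NSC-CiPSC, against 33.3 FPKM in NSC, and 57.2 and 59.1 FPKM in IEC-CiPSC, against 24.0 FPKM in IEC. Smarcc2 (chr10, 128459236 to 128490173), a scaffold known from neural complexes, had 7.59, 7.74 and 8.27 FPKM in NSC-CiPSC, against 34.3 FPKM in NSC, and 9.06 and 8.06 FPKM in IEC-CiPSC, against 39.9 FPKM in IEC. The 5 CiPSC lines and the somatic libraries did not overlap for either gene. Here and elsewhere, the share of all genes whose groups separate in this way was not counted. Smarcc1 rose by 1.14 in NSC-CiPSC (SE 0.106, limma adjusted p = 0.00200) and by 1.24 in IEC-CiPSC (SE 0.113, limma adjusted p = 0.00150). Smarcc2 fell by 2.00 in NSC-CiPSC (SE 0.11, limma adjusted p = 0.000565) and by 2.10 in IEC-CiPSC (SE 0.117, limma adjusted p = 0.000376). ESC had 64.0 FPKM of Smarcc1 and 8.66 FPKM of Smarcc2.

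The ratio of Smarcc1 to Smarcc2 was 10.8, 9.02 and 8.88 in NSC-CiPSC lines (mean 9.56 ± 1.06, SD, n = 3), against 0.971 in NSC. It was 6.31 and 7.33 in IEC-CiPSC lines (mean 6.82 ± 0.719, SD, n = 2), against 0.602 in IEC, and 7.40 in ESC. Smarcc1 made up 86.3% to 91.5% of the summed scaffold FPKM in the 6 pluripotent libraries, against 49.3% in NSC and 37.6% in IEC. The sum was 82.9 ± 6.03 FPKM in NSC-CiPSC (SD, n = 3), against 67.6 FPKM in NSC, and 66.7 ± 0.624 FPKM in IEC-CiPSC (SD, n = 2), against 63.9 FPKM in IEC. Ratios, shares and sums are descriptions with no test, and RNA levels do not show which subunits share a complex.

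Among the actin-like subunits, Actl6a (chr3, 32708546 to 32726968), which is carried by complexes of dividing cells, had 102, 103 and 89.2 FPKM in NSC-CiPSC, against 32.1 FPKM in NSC. It had 99.7 and 108 FPKM in IEC-CiPSC, against 22.2 FPKM in IEC, and 116 FPKM in ESC. All 5 lines lay above both somatic libraries. Actl6a rose by 1.58 in NSC-CiPSC (SE 0.113, limma adjusted p = 0.00107) and by 2.17 in IEC-CiPSC (SE 0.12, limma adjusted p = 0.000366). The annotation places Mrpl47, at up to 60.1 FPKM, over 1572 bases of Actl6a, and whether the authors counted by strand is not given in the sources used here.

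Actl6b (chr5, 137553517 to 137569582), the partner found in postmitotic neurons, was close to the bottom of the scale everywhere. It had 0.0774 FPKM in NSC-CiPSC line 2 and was listed at 0 in lines 1 and 3, against 1.21 FPKM in NSC. It had 0.0677 and 0.0675 FPKM in IEC-CiPSC, against 0.0677 FPKM in IEC, and was listed at 0 in ESC. The interval in NSC ran from 0 to 2.83 FPKM, so the fall of 1.11 in NSC-CiPSC (SE 0.052, limma adjusted p = 0.000397) rests on 1 library whose own interval includes 0. Its size depends on the pseudocount, since with 0.1 in place of 1 the difference was -3.44 (limma adjusted p = 0.00376). Actl6a exceeded Actl6b in every library, so an exchange of the predominant partner was not seen. With Actl6b this low its interval reached 0, so the ratio of Actl6a to Actl6b has a lower bound from the intervals but no upper one. Where Actl6b was above 0, this lower bound was 328 in NSC-CiPSC line 2, against 10.2 in NSC, and 357 and 397 in IEC-CiPSC lines 10 and 13, against 76.1 in IEC. The ratios themselves were 1326 in NSC-CiPSC line 2, against 26.6 in NSC, and 1472 and 1598 in the IEC-CiPSC lines, against 327 in IEC. With 1 FPKM added to both genes the ratio of NSC-CiPSC line 2 was 96.2, and the mean of the IEC-CiPSC lines was 98.2, against 21.7 in IEC. Neuron markers, 9 of which were found, summed to 74.1 to 164 FPKM in NSC-CiPSC, 127 and 144 FPKM in IEC-CiPSC, 176 FPKM in NSC, 9.58 FPKM in IEC and 167 FPKM in ESC, with 1 gene at 10 FPKM or more in each pluripotent library and 2 in NSC. These sums rest on different genes. Stmn2 supplied 68.2 to 151 FPKM in NSC-CiPSC, 123 and 140 FPKM in IEC-CiPSC and 163 FPKM in ESC, against 0.179 FPKM in NSC and 0.663 FPKM in IEC, whereas Map2 supplied 139 FPKM in NSC. All markers but Stmn2 (8 of 9) were lower in each pluripotent library than in NSC, such as Syp at 0.645 ± 0.307 FPKM in NSC-CiPSC (SD, n = 3), against 7.93 FPKM in NSC. The part of neurons in the NSC level of Actl6b was not tested.

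The promoters of the actin-like pair are shown for the contrast between their motifs. Actl6a lies at chr3:32708296-32708545 (+ strand) and Actl6b at chr5:137553296-137553545 (+ strand), with the same marks as above. The Actl6b sequence runs past the gene start of 137553517 given with its levels, and the last of its CCAAT boxes lies beyond that start.
Actl6a: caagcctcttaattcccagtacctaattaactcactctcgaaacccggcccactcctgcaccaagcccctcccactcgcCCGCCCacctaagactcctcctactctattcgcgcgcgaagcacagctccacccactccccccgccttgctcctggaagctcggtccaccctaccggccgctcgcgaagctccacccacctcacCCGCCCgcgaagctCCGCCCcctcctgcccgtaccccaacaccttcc
Actl6b: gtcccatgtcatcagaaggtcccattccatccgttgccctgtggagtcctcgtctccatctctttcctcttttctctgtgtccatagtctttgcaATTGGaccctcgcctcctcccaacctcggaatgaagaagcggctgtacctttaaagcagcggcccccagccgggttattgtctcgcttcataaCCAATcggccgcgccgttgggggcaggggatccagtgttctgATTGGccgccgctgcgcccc
Actl6a had 3 GC boxes and no CCAAT box, and Actl6b had 3 CCAAT boxes and no GC box. Over the 10 genes, 7 held a GC box and 3 a CCAAT box, CpG counts ran from 15 to 51, and none held the octamer or the TATA box. The sequences read for Smarcd3, Phf10, Dpf1 and Dpf2 also reach into the gene at the coordinates given here. A match describes these letters only.

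Smarcd3 (chr5, 24590818 to 24602012), the Smarcd paralogue known from heart and neural complexes, fell with Smarca2 and Smarcc2. It had 5.87, 7.69 and 7.998 FPKM in NSC-CiPSC, against 62.1 FPKM in NSC, and 3.21 and 3.07 FPKM in IEC-CiPSC, against 28.9 FPKM in IEC. The change was -2.96 in NSC-CiPSC (SE 0.192, limma adjusted p = 0.000847) and -2.86 in IEC-CiPSC (SE 0.204, limma adjusted p = 0.000754). The gene overlaps Chpf2, at up to 15.3 FPKM, over 3578 bases. Smarcd3 made up 4.94% to 15.4% of the summed Smarcd FPKM in the pluripotent libraries, against 59.2% in NSC and 37.7% in IEC.

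Smarcd1 and Smarcd2, its paralogues, changed differently by origin, in a contrast that called 30.5% of all genes. This contrast uses 1 library each of NSC and IEC. Between the CiPSC origins neither paralogue was called, with differences of 0.30 for Smarcd2 and 0.53 for Smarcd1. Smarcd2 averaged 35.1 ± 5.49 FPKM in NSC-CiPSC (SD, n = 3), against 5.78 FPKM in NSC, and rose by 2.40 (SE 0.208, limma adjusted p = 0.00171), whereas it averaged 28.1 ± 2.79 FPKM in IEC-CiPSC (SD, n = 2), against 40.3 FPKM in IEC. Smarcd1 averaged 31.5 ± 0.0416 FPKM in IEC-CiPSC (SD, n = 2), against 7.53 FPKM in IEC, and rose by 1.93 (SE 0.118, limma adjusted p = 0.000487), whereas it averaged 46.1 ± 4.02 FPKM in NSC-CiPSC (SD, n = 3), against 37.0 FPKM in NSC. The difference between the changes, NSC-CiPSC minus IEC-CiPSC, was 2.91 for Smarcd2 (SE 0.304, limma adjusted p = 0.00393) and -1.63 for Smarcd1 (SE 0.162, limma adjusted p = 0.00339).

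**Figure D2:**
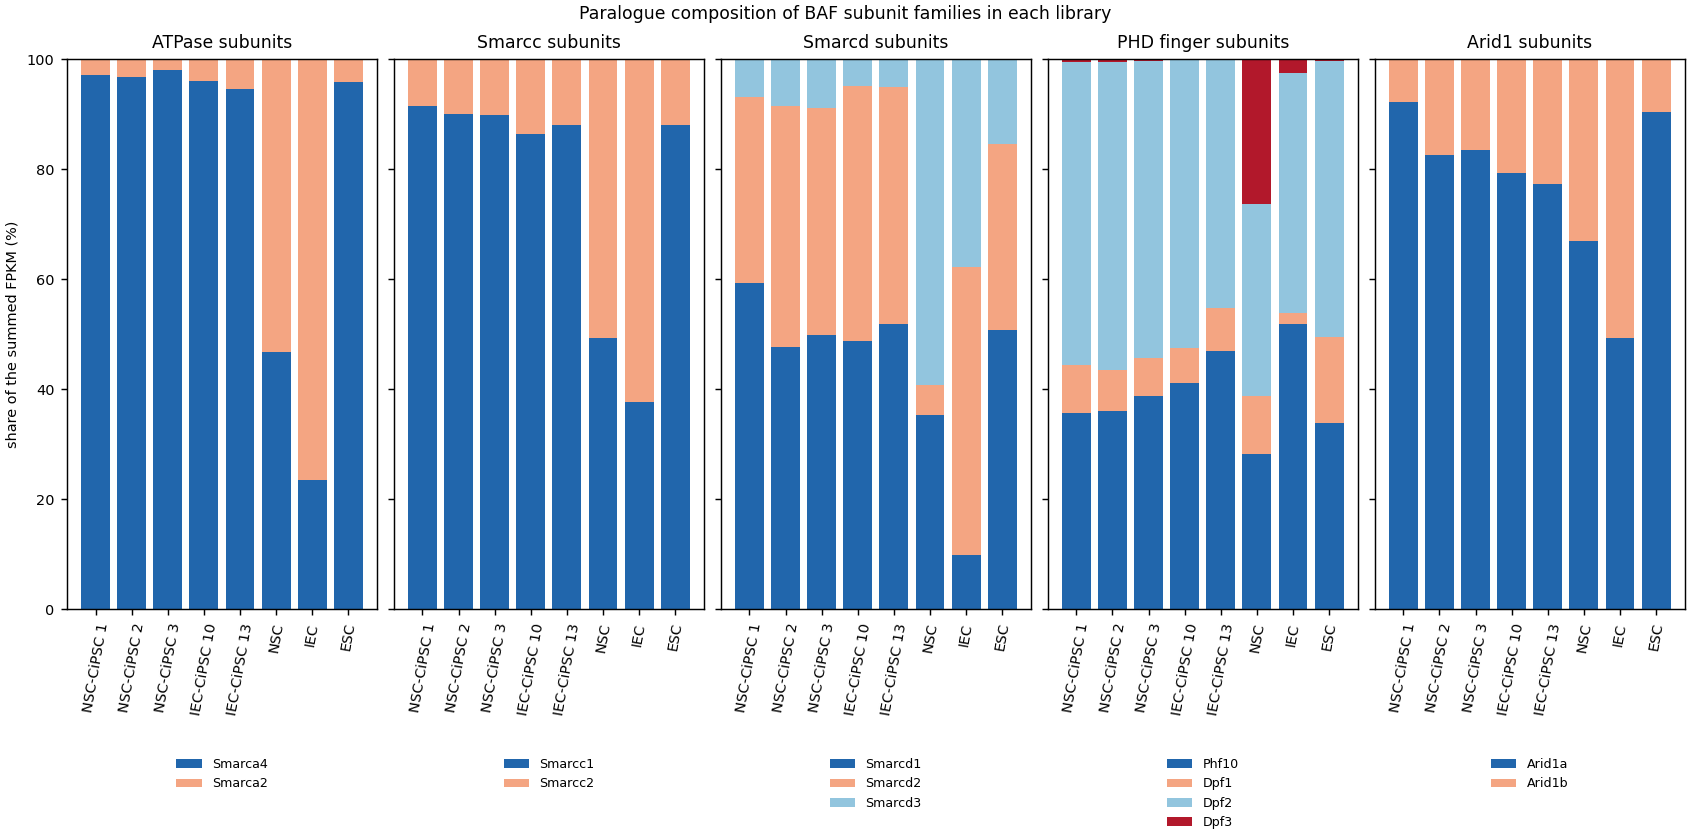
Share of the summed FPKM (%) that each paralogue holds in its family, as stacked bars for each of the 8 libraries, for the ATPases, Smarcc, Smarcd, PHD finger and Arid1 families. Smarca4 holds 94.6% to 98.1% of the ATPase sum in the 6 pluripotent libraries, and Smarcd3 holds 59.2% of the Smarcd sum in NSC.

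Among the PHD finger subunits, Phf10 and Dpf2 were not called against either somatic library. Phf10 (chr17, 14945009 to 14961273), used in progenitor complexes, had 45.4, 58.3 and 56.9 FPKM in NSC-CiPSC, against 38.9 FPKM in NSC, and 52.3 and 57.1 FPKM in IEC-CiPSC, against 45.5 FPKM in IEC, and did not pass the test (log2 differences 0.44 and 0.26, limma adjusted p = 0.0942 and 0.285). Phf10 overlaps 1600012H06Rik, at up to 21.2 FPKM, over 14562 bases. Dpf2 (chr19, 5896516 to 5913010), a broadly expressed member, had 70.1, 90.8 and 79.4 FPKM in NSC-CiPSC, against 48.2 FPKM in NSC, and 66.6 and 54.7 FPKM in IEC-CiPSC, against 38.4 FPKM in IEC. Its differences were 0.71 (SE 0.192, limma adjusted p = 0.0375), under the 2-fold minimum, and 0.64 (SE 0.203, limma adjusted p = 0.0544). ESC had 34.2 FPKM of Phf10 and 50.6 FPKM of Dpf2, both below all 5 CiPSC lines, but limma called neither gene against ESC in CiPSC of either origin.

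Dpf1 (chr7, 29303951 to 29317588), known from neuronal complexes, was higher than IEC in IEC-CiPSC and was not called against NSC. It had 11.0, 12.1 and 10.3 FPKM in NSC-CiPSC, against 14.6 FPKM in NSC, a difference of -0.37 (SE 0.158, limma adjusted p = 0.119, 95% interval -0.80 to 0.07). It had 7.98 and 9.58 FPKM in IEC-CiPSC, against 1.82 FPKM in IEC, whose interval within the library ran from 0 to 3.68 FPKM, and rose by 1.79 (SE 0.167, limma adjusted p = 0.00164). ESC had 15.8 FPKM, above all 5 lines, with an interval of 10.4 to 21.3 FPKM. Dpf1 was not called by limma against ESC in CiPSC of either origin. Dpf3, the paralogue outside the 10 genes, fell by 4.47 in NSC-CiPSC (SE 0.156, limma adjusted p = 0.00019), to 0.689 ± 0.2 FPKM (SD, n = 3), against 36.2 FPKM in NSC, and by 1.35 in IEC-CiPSC (SE 0.165, limma adjusted p = 0.00359). It held at most 0.580% of the summed PHD finger FPKM in the pluripotent libraries, against 26.3% in NSC and 2.46% in IEC. Dpf3 passed the filter of 1 FPKM through NSC and IEC alone.

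**Figure D3:**
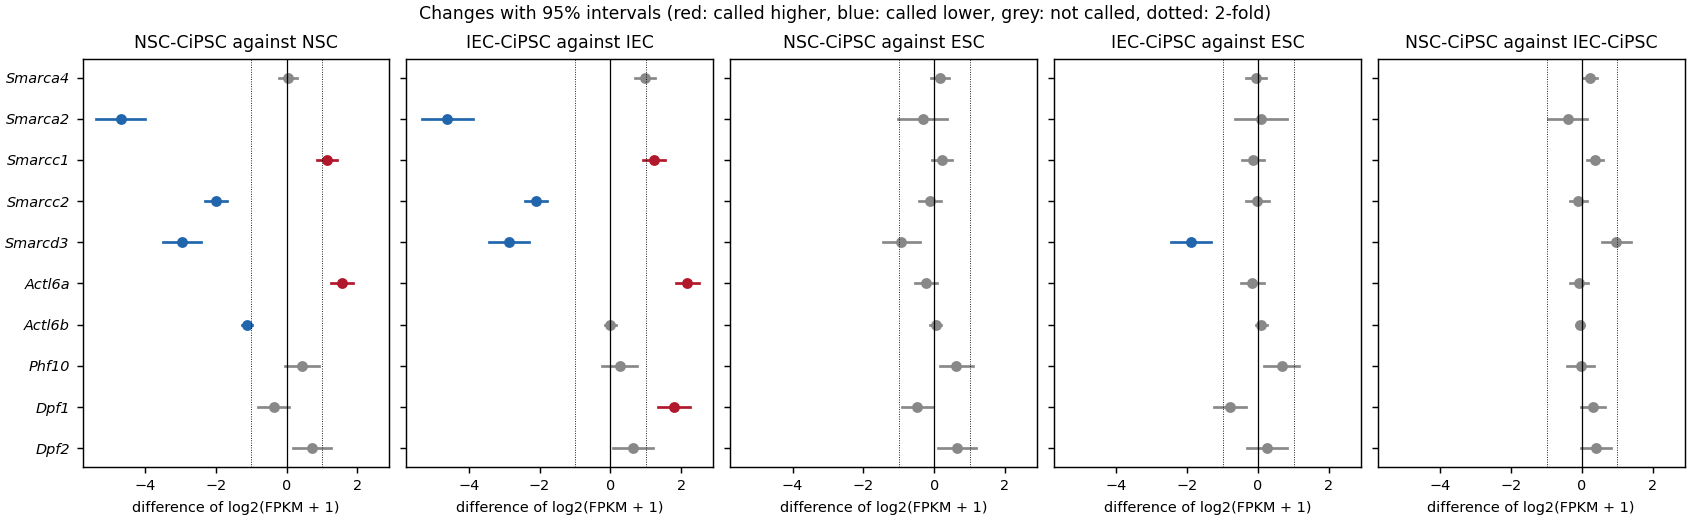
Difference of log2(FPKM + 1) of the 10 BAF subunit genes in 5 comparisons, 1 panel each, with bars for the 95% interval from limma. Smarca2 fell by 4.68 against NSC and fell by 4.60 against IEC, and its differences from ESC and between CiPSC origins lie nearer to 0.

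Against NSC, 6 of the 10 genes were called in NSC-CiPSC (adjusted p below 0.05 with a difference of 2-fold or more), 2 higher and 4 lower, beside 39% of all 17011 genes tested (18.3% higher and 20.7% lower). Against IEC, 6 of 10 were called in IEC-CiPSC, 3 higher and 3 lower, beside 45.3% of all genes (19.1% higher and 26.2% lower). Of the genes called in IEC-CiPSC against IEC, 42.2% were higher, and 52.6% were with quantile normalization, which moved the median of all genes by 0.18 but changed no call among the 10. A call was thus common among all genes in both comparisons, and without Actl6b, which passed the filter through NSC alone, the first count is 5 of 9. The median size of the log2 difference was 1.13 for the 10 genes, beside 0.83 over all genes, in NSC-CiPSC, and 1.51 beside 0.97 in IEC-CiPSC. The calls of both comparisons share 5 genes: Smarca2, Smarcc1, Smarcc2, Smarcd3 and Actl6a. The comparisons share no library, although they share the estimate of the spread. Both set pluripotent lines against a somatic library. The share of all genes called in both was not counted, so the overlap is a description only.

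The changes of both origins were compared directly by the difference NSC-CiPSC minus NSC, less IEC-CiPSC minus IEC. It called 2 of the 10 genes, beside 30.5% of all genes, of which 57.6% were positive (47.5% with quantile normalization, which moved the median of all genes by -0.16): Dpf1 (-2.16, SE 0.23, limma adjusted p = 0.00415) and Actl6b (-1.11, SE 0.077, limma adjusted p = 0.00114). Actl6b was tested only because NSC, where it is highest, reached 1 FPKM, so its call supports no difference between origins, and without it the count is 1 of 9. Smarca4 differed by -0.93 (SE 0.138, limma adjusted p = 0.0106), under the 2-fold minimum, and without IEC-CiPSC line 10 by -0.91 (limma adjusted p = 0.0529). For Smarca2 the difference was -0.08 with a 95% interval of -1.08 to 0.93, for Smarcc1 -0.10 (-0.52 to 0.33), for Smarcc2 0.10 (-0.34 to 0.54) and for Smarcd3 -0.10 (-0.87 to 0.67).

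Set against ESC, 0 of the 10 genes were called by limma in NSC-CiPSC, beside 2.81% of all genes. An unadjusted p under 0.05 was reached by 4 of the 10, beside 3758 of the 17011 genes tested. The largest difference was that of Smarcd3, which had 7.19 ± 1.15 FPKM in NSC-CiPSC (SD, n = 3), against 14.4 FPKM in ESC (-0.93, SE 0.192, limma adjusted p = 0.0928). In IEC-CiPSC an unadjusted p under 0.05 was reached by 3 of the 10, beside 4096 of the 17011 genes tested. There 1 gene was called, beside 3.36% of all genes. This was Smarcd3, at 3.14 ± 0.0996 FPKM (SD, n = 2), against 14.4 FPKM in ESC (-1.90, SE 0.204, limma adjusted p = 0.0261). The call did not hold without NSC-CiPSC line 2 (limma adjusted p = 0.0671), NSC-CiPSC line 3 (0.086), IEC-CiPSC line 10 (0.154) or IEC-CiPSC line 13 (0.154), nor with the libraries of the comparison alone (0.078). The 95% intervals for Smarca2 against ESC ran from -1.02 to 0.36 in NSC-CiPSC and from -0.65 to 0.81 in IEC-CiPSC. The 2 comparisons share the ESC library.

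Between the CiPSC origins, 0 of 10 genes were called by limma, beside 4.32% of all genes. An unadjusted p under 0.05 was reached by 3 of the 10, beside 4894 of the 17011 genes tested. Smarcd3 was higher in NSC-CiPSC than in IEC-CiPSC by 0.97 (SE 0.152, limma adjusted p = 0.0382), with all 3 NSC-CiPSC lines above both IEC-CiPSC lines, but under the 2-fold minimum. Smarcc1 differed by 0.36 (SE 0.084, limma adjusted p = 0.0804).

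The other BAF family genes formed a list of 21, of which 20 were tested. In NSC-CiPSC 4 of 20 were called (20%, beside 39% of all genes: Smarcd2 and Gltscr1l higher, Dpf3 and Bcl11a lower), with a median difference of -0.19. In IEC-CiPSC 5 of 20 were called (25%, beside 45.3% of all genes: Smarcd1 and Ss18 higher, Arid1b, Dpf3 and Bcl11a lower) with a median of -0.23. Dpf3 and Bcl11a reached at most 0.859 and 0.523 FPKM in the pluripotent libraries, so they passed the filter through NSC and IEC alone. Their lower calls therefore add no support. Bcl11a was low in these as well, at 2.28 FPKM in NSC and 4.79 FPKM in IEC. Against ESC limma called 0 of 20 in NSC-CiPSC (3 at an unadjusted p under 0.05) and 0 of 20 in IEC-CiPSC (5 at an unadjusted p under 0.05). Of the 17011 genes tested, 3758 and 4096 reached that unadjusted p in these comparisons. Arid1a, a DNA-binding subunit of canonical BAF, held 77.3% to 92.2% of the summed Arid1 FPKM in the pluripotent libraries, against 66.9% in NSC and 49.3% in IEC. Arid1a itself was not called against NSC or IEC. It averaged 41.6 ± 13.9 FPKM in NSC-CiPSC (SD, n = 3) and 20.7 ± 1.25 FPKM in IEC-CiPSC (SD, n = 2), against 46.6 FPKM in ESC. Of 18 remodelling genes outside BAF, 17 were tested. In NSC-CiPSC 1 of 17 was called (5.88%, beside 39% of all genes), and this was Hells (2.80), a helicase linked to DNA methylation. In IEC-CiPSC 7 of 17 were called (41.2%, beside 45.3% of all genes), with Hells (3.76) and Smarca5 (2.00), an ISWI ATPase, among the 5 that rose and Smarca1 (-2.81) and Chd3 (-2.90) the 2 that fell.

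**Figure D4:**
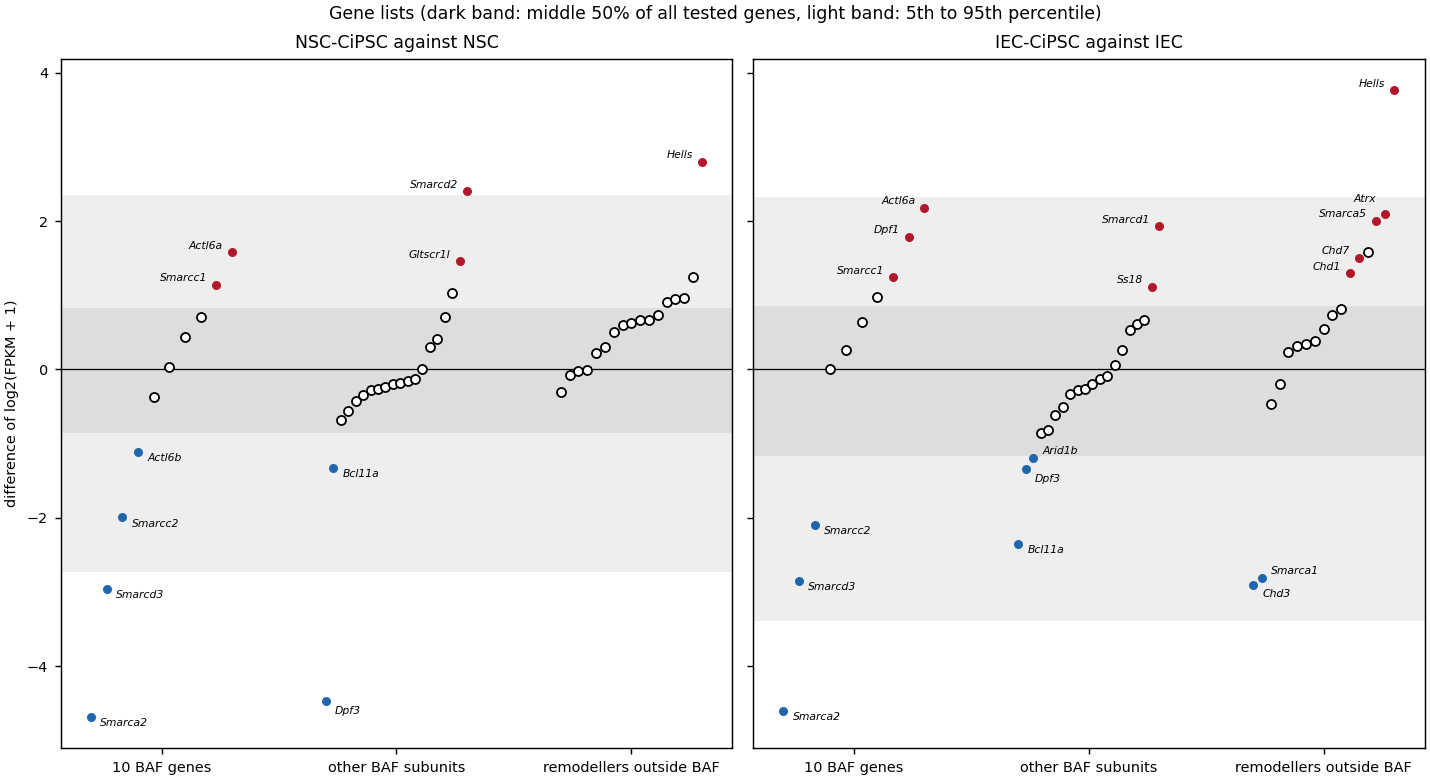
Difference of log2(FPKM + 1) of each gene in 3 lists (the 10 BAF subunit genes, other BAF subunits and remodellers outside BAF) for NSC-CiPSC against NSC and IEC-CiPSC against IEC, sorted within a list. Filled points are called genes (red higher, blue lower) and the bands hold the middle 50% and the 5th to 95th percentile of all tested genes. Smarca2 lies below the lower band in both panels.

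The genes whose log2(FPKM + 1) over the 8 libraries was most like that of 3 of the genes were found among 9727 genes by Pearson correlation, a description in which the pluripotent and the somatic libraries form separate clusters. For Smarcc1 they were Recql4 (0.999), Gng3 (0.996) and Fam169a (0.996). For Smarca2 they were S100a16 (0.997), Tmem176b (0.997) and Sspn (0.995), and for Smarcd3 they were Dync1li2 (0.992), Smad1 (0.987) and Pros1 (0.982).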

How the data were processed

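Levels are FPKM values that the authors deposited. The submitters' processing notes name TopHat, Cufflinks and mm10, and versions and annotation release are not given in the sources used here. The labels name the RNeasy Plus Mini kit for total RNA and the NEBNext Ultra kit for libraries. The files hold no read counts, so depth is not given, and the 95% intervals within a library are those the authors deposited in FPKM. The 447 entries with a status other than OK in any library were left out.

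Differences of log2(FPKM + 1) were fitted with limma 3.58.1 (R 4.3.3) over 17011 genes that reached 1 FPKM in any library, with a mean per group, empirical Bayes moderation with a trend (3 residual and 1.1 prior degrees of freedom) and Benjamini-Hochberg adjustment. Calls needed an adjusted p below 0.05 and a 2-fold difference. NSC, IEC and ESC have 1 library each and borrow the spread of the CiPSC lines. The fit was tested on simulated data. Ratios and shares use FPKM within a library. Named genes are the 10 subunits, up to 8 paralogues or called genes of the BAF family, remodellers outside BAF, and the 3 genes most correlated with each of 3 subunits among those reaching 10 FPKM. Members and lists were chosen with earlier results of these data known. Chd4 was untested because of its status in 1 library. Alternatives covered the pseudocount, scaling, filter, trend, fold minimum, libraries used and each CiPSC line left out. Python 3.11.15, pandas 2.3.3 and matplotlib 3.10.9 made tables and figures.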

Additional observations from a re-analysis of the deposited data

Results flagged for a closer look

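The test of the difference between origins, NSC-CiPSC minus NSC less IEC-CiPSC minus IEC, gave an adjusted p under 0.05 for 3 of the 10 genes, beside 6491 of the 17011 genes tested, and 2 of the 3 also passed the 2-fold minimum. For Dpf1 the difference was -2.156 (SE 0.23, limma adjusted p = 0.00415), with IEC at 1.82 FPKM and NSC at 14.6 FPKM. For Smarca4 it was -0.932 (SE 0.138, limma adjusted p = 0.0106), under the 2-fold minimum, with 26.2 FPKM in IEC. Without IEC-CiPSC line 10 its limma adjusted p was 0.0529, and over all alternatives it ran from 0.00496 to 0.0529. For Actl6b the value was -1.107 (-3.43 with a pseudocount of 0.1). Actl6b passed the filter through NSC alone, at 1.21 FPKM with an interval from 0 to 2.83 FPKM, so this value supports no difference between origins. NSC and IEC have 1 library each, and the part of the other cell types in IEC was not tested.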

How the results depend on the processing

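No paired analysis was possible because no pair of groups shares more than 1 replicate number, and the number 1 of NSC, IEC and ESC only names a lone library. The called log2 differences numbered 15, among them Actl6b against NSC and Actl6b in the difference between origins. Actl6b passed the filter through NSC alone, so its calls add no support. Over 12 alternatives, 14 of the 15 kept direction and call in all of them. The exception was Smarcd3 in IEC-CiPSC against ESC, whose count of called genes was 0 with only the groups of the comparison and ranged from 0 to 1 when 1 line was left out. The count for NSC-CiPSC against IEC-CiPSC was 1 (Smarcd3) with no fold minimum and with pseudocount 0.1, and ranged from 0 to 1 when 1 line was left out. With FPKM + 1 in the ratios, Smarca4 to Smarca2 came to 23.5 for NSC-CiPSC and 15.1 for IEC-CiPSC, and Actl6a to Actl6b came to 96.2 for NSC-CiPSC line 2, 98.2 for IEC-CiPSC and 21.7 for IEC. With FPKM + 0.1 the ratio of Actl6a to Actl6b was 620 for IEC-CiPSC. Smarca4 against IEC passed 2-fold with upper quartile scaling (1.04). Differences that were not called changed sign or came to 0 in 14 cases. Actl6b against IEC gave 0.08 with quantile normalization and 0.004 with upper quartile scaling. When 1 line was left out, Actl6b in NSC-CiPSC against ESC ranged from 0 to 0.054, Smarca2 in IEC-CiPSC against ESC from -0.067 to 0.221, Smarcc2 there from -0.092 to 0.059, and Phf10 between CiPSC origins from -0.101 to 0.076. Likewise, for the difference between the changes of both origins, Smarca2 ranged from -0.22 to 0.067, Smarcd3 from -0.174 to 0.021 and Dpf2 from -0.067 to 0.212. With all lines, that difference was 0.141 for Smarca2 with quantile normalization and 0.059 for Smarcd3 with pseudocount 0.1. The cause was not tested. Quantile normalization moved the median of all genes by 0.176 in IEC-CiPSC against IEC and the share of higher calls to 52.6%, against 42.2%. Levels near 0 FPKM, such as Actl6b, are limited by depth.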
